A study of Danio rerio with 20 samples.

Results

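In-frame single deletions are alleles in which exactly 1 deletion, and no other change, removed a number of bases divisible by 3. They were selected by their label alone, a start position and a length, in the read count tables of 6 Cas9 guides. Of 5533 rows in the tables, 820 were indel alleles, 312 of these were single deletions, and 64 were in-frame single deletions. They lay at 5 of the 6 guide sites, with 16 at each of acaa2-sg1 and acaa2-sg2, 11 at tlr4ba-sg1 and 8 at tlr4ba-sg2, and with 13 at tlr4bb-sg2 but 0 at tlr4bb-sg1.

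The DNA came from zebrafish melanomas made by TEAZ, in which transgenes are electroporated into the skin of adult fish, and tumour cells had been sorted for the red protein tdTomato and the DNA dye Hoechst before extraction. Tumours of 4 acaa2 knockout fish were read at acaa2-sg1 and acaa2-sg2, and tumours of 4 tlr4 knockout fish at tlr4ba-sg2 and tlr4bb-sg2. The sites of the first guides tlr4ba-sg1 and tlr4bb-sg1 were read in fish 3 and 4 only. The 20 samples held 28353 to 729540 reads, and no unedited tissue was analysed here. The tables hold genomic DNA only, so the labelled cell type could not be set against marker genes, and the share of unedited cells in a sample is not known.

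Cas9 makes a cut in both DNA strands, and the cell's end joining often closes it with a few bases missing. When the missing length is divisible by 3 and the site is coding, the downstream reading frame is kept, and the protein may lose amino acids without being cut short. For this reason such alleles are counted apart when a knockout guide is assessed. The gene acaa2 encodes an enzyme of mitochondrial fatty acid oxidation, and tlr4ba and tlr4bb encode Toll-like receptors of innate immunity. Here "in-frame" refers to length only: the guides' sequences and the genomic positions they cut, whether exonic or intronic, were not analysed, and no sequence letters are given for any allele.

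An allele is written as its start position, a colon, its length and D for deletion. Positions were taken to run from -1 to 1 with no 0, and the boundary between -1 and 1 is called position 0. The end of each deletion was counted rightwards from its start, so that -6:12D covers positions -6 to 6. Both are assumptions, as is any reading of position 0 as the cut. Shares are given of classified reads, which are all reads except those the tables list as Other, or of indel reads, which carry at least 1 insertion or deletion.

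In-frame single deletions were a large part of the indel reads in a few samples (1 guide read in 1 tumour) and nearly absent from most. They had at least 1 read in 18 of 20 samples, but made up over 10% of the indel reads in only 6 samples and under 1% in 13. In total they held 395166 reads, and 5 alleles held 97.5% of these: -15:12D at acaa2-sg2, -6:12D at acaa2-sg1, -15:21D at tlr4bb-sg2, -14:12D at tlr4ba-sg1 and -6:6D at tlr4bb-sg2. The other members were mostly rare, with 34 of the 64 alleles under 10 reads and 15 at a single read. PCR reads that carry no molecular identifier do not count independent molecules, so the Wilson intervals below and the limit of 3 reads for a count of 0 cover counting error only.

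At acaa2-sg1 the in-frame share of classified reads was 0.00049% in fish 1 (1 read), 0.022% in fish 2, 0.165% in fish 3 and 18.6% in fish 4 (95% Wilson interval 18.5 to 18.8). As a share of indel reads it was 0.621% (interval 0.110 to 3.43), 0.027%, 0.416% and 43.6% in fish 1 to 4. Fish 4 stood far above the other fish on both scales, and its share rested on -6:12D, with 45193 reads or 18.4% of classified reads. This allele, which removes the same number of bases on each side of position 0, had 0 reads in fish 1, 2 and 3, which allows up to 0.00146%, 0.00263% and 0.00135%. A further 12-bp deletion of fish 4, -7:12D, had 403 reads or 0.164%. Fish 3 carried a 6-bp deletion, -6:6D, in 344 reads or 0.155%, and fish 2 a 3-bp deletion, 2:3D, in 24 reads or 0.021%. Neither of these had a read in another fish.

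At acaa2-sg2 the in-frame share of classified reads was 0.906% in fish 1 (interval 0.872 to 0.942), 0.0010% in fish 2 (3 reads), 35.5% in fish 3 (interval 35.3 to 35.6) and 0.0021% in fish 4 (11 reads). The share of indel reads ordered the fish differently, at 66.4%, 0.0012%, 39.7% and 0.0054% in fish 1 to 4. Fish 1 was thus a tumour with few indel reads, 3850 in all, of which most were in frame. Nearly all of these came from a single allele, -6:12D, with 2540 reads in fish 1 and 0 in the other fish. Fish 3 carried -15:12D in 258187 reads, or 35.4% of classified reads, and fish 4 carried it in a further 8 reads, while fish 1 and 2 had 0. The 3-bp deletion -3:3D was seen in 3 reads of fish 2 and 2 of fish 4.

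The label -6:12D was thus among the leading in-frame alleles of both acaa2 guides, in fish 4 at acaa2-sg1 and in fish 1 at acaa2-sg2. The guides cut different sites, so the shared label describes the same placement around position 0 and not the same bases. The 64 members carried 47 different labels, of which 15 occurred at more than 1 guide.

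At tlr4ba-sg1, fish 3 had 2 in-frame reads and fish 4 had 38087. These were 0.00052% and 8.42% (interval 8.34 to 8.50) of classified reads, and 0.0014% and 10.8% of indel reads. The fish 4 reads were mainly -14:12D, with 37039 reads or 8.19%, and the 3-bp deletion -15:3D, with 1004 reads or 0.222%, while both had 0 reads in fish 3, which allows up to 0.00079%. Fish 3 held only the 3-bp deletion -9:3D. All 11 in-frame deletions at this site lay wholly to the left of position 0, between positions -21 and -2, and none reached it.

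At tlr4ba-sg2 the in-frame share of classified reads was 6.50% in fish 1 (interval 6.32 to 6.69), 0.606% in fish 2 (interval 0.522 to 0.703), 0.00084% in fish 3 (4 reads) and 0.00016% in fish 4 (1 read). The corresponding shares of indel reads were 9.40%, 11.2%, 0.0093% and 0.022%. On the scale of indel reads fish 1 and 2 were close together, although their shares of classified reads were far apart. The same 3-bp deletion led in both, -4:3D, with 4363 reads in fish 1 and 170 in fish 2, or 6.23% and 0.602% of classified reads. It had 0 reads in fish 3 and 4, which allows up to 0.00063% and 0.00049%. Next to it, -3:3D had 171 reads in fish 1 only, at 0.244%. The few reads of fish 3 were -2:3D, which also had 3 reads in fish 1. Apart from 1 allele of 18 bp and 1 of 6 bp, the members at this guide were 3-bp deletions, 6 of 8.

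At tlr4bb-sg2 the in-frame share of classified reads was 42.9% in fish 1 (interval 42.6 to 43.2), 0.0050% in fish 2 (5 reads), 0.0090% in fish 3 (29 reads) and 0.00033% in fish 4 (1 read). As a share of indel reads it was 59.2%, 0.0063%, 0.129% and 0.0018%. Fish 1 alone carried in-frame deletions in bulk. It was also the one sample with 2 in-frame alleles above 1% of classified reads. The 21-bp deletion -15:21D had 38034 reads, or 36.2%, and the 6-bp deletion -6:6D had 6670 reads, or 6.34%. In fish 2 they had 4 reads and 1 read, and in fish 3 and 4 they had 0. A 3-bp deletion, -3:3D, was read 176 times in fish 1 (0.167%) and 27 times in fish 3 (0.0084%), and 0 times in fish 2 and 4.

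At tlr4bb-sg1 no in-frame single deletion was read among 233695 classified reads of fish 3 and 201223 of fish 4. A count of 0 allows up to 0.00128% and 0.00149% of classified reads. Only 102 and 91 reads carried an indel there, so the same count allows up to 2.94% and 3.30% of indel reads, and a small in-frame share was not detectable at this depth.

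The remaining 48 members had 1 to 142 reads each and 794 reads together, and none exceeded 0.081% of classified reads in any fish. In the 8 samples with more than 100 in-frame reads, the leading allele held 84.3% to 99.9% of them. In-frame reads of a guide in such a tumour were therefore mostly those of a single allele, and a mean over fish of such shares has a wide spread.

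The lengths of the 64 members were uneven. There were 20 alleles of 3 bp, 6 of 6 bp, 2 of 9 bp, 26 of 12 bp, 2 of 15 bp, 1 of 18 bp, 6 of 21 bp and 1 of 57 bp. The 57-bp allele, -10:57D at acaa2-sg2, was a single read of fish 3 and is named here, after its value was seen, because it sets the longest length of that guide. Deletions of 12 bp made up 40.6% of the members and 87.0% of their reads. Those of 21 bp held 9.66% of the reads, those of 6 bp 1.79% and those of 3 bp 1.51%. The lengths of 9, 15 and 18 bp together were 5 alleles with 5, 16 and 10 reads.

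Each length was set against its neighbours 1 bp shorter and 1 bp longer, which shift the frame. There were 26 alleles of 12 bp, against 8 of 11 bp and 5 of 13 bp, and 343884 reads of 12 bp, against 92 and 21. The 12-bp excess was present at each of the 3 sites that had 12-bp deletions: 9 alleles against 5 and 3 at acaa2-sg1, 11 against 1 and 2 at acaa2-sg2, and 6 against 0 and 0 at tlr4ba-sg1. No 12-bp deletion was read at the other 3 sites. Most of the 12-bp alleles were rare ones read beside an abundant allele of the same length, so the number of alleles is not independent of the number of reads. The 21-bp deletions, 6 alleles and 38187 reads, were all at tlr4bb-sg2, where 20 and 22 bp had 0 alleles. At 3 bp the order over all guides was the other way for reads, with 5971 reads in 20 alleles, against 186294 reads in 50 alleles of 2 bp and 27964 reads in 15 alleles of 4 bp. By site, 3 bp had fewer reads than both neighbours only at tlr4ba-sg2, with 4721 against 44134 and 24549. It exceeded 4 bp at acaa2-sg1 (26 against 2), acaa2-sg2 (6 against 0) and tlr4bb-sg2 (208 against 3). At tlr4ba-sg1 it exceeded 2 bp (1010 against 71). At 6 bp there were 7092 reads in 6 alleles, against 36515 in 17 alleles of 5 bp and 42663 in 12 alleles of 7 bp. This order did not hold at tlr4bb-sg2, which held most of the 6-bp reads, with 6741 reads in 3 alleles of 6 bp, against 384 of 5 bp and 16 of 7 bp. At 9 bp there were 5 reads in 2 alleles, all at acaa2-sg1. Over all guides, 8 bp had 1220 reads in 4 alleles and 10 bp had 45042 in 10 alleles. At 15 bp there were 16 reads, against 372656 reads of 14 bp and 0 of 16 bp. At 18 bp there were 10 reads, against 0 of 17 bp and 6 of 19 bp. The 1 read of 57 bp had 0 reads at either neighbouring length. These sums follow the leading allele of a few tumours, so they describe these samples and were not tested.

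If deletion lengths were spread evenly from 1 bp to the longest single deletion of a guide, the share divisible by 3 would be 30.8% at acaa2-sg1, 33.3% at acaa2-sg2 and tlr4ba-sg1, 30.4% at tlr4ba-sg2 and tlr4bb-sg2, and 28.6% at tlr4bb-sg1. Among distinct single-deletion alleles, members made up 20.8% at acaa2-sg1 and 23.9% at acaa2-sg2, then 22.9% at tlr4ba-sg1 and 15.4% at tlr4ba-sg2, and 28.3% at tlr4bb-sg2 but 0% at tlr4bb-sg1. All 6 values, which count 1-bp deletions, were below the even share, by the least at tlr4bb-sg2. The value of tlr4bb-sg1 rests on 22 alleles with 169 reads. Shares without 1-bp deletions are given below for all guides together, so the order by guide may differ there. Over all guides 64 of 312 alleles, or 20.5%, were in frame, as were 18.2% of their reads.

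By sample, the in-frame share of single-deletion reads was above the even share in 4 of 20 samples and below it in 16. The 4 were acaa2-sg2 fish 1, with 66.5% observed against 33.3% expected, tlr4bb-sg2 fish 1, with 59.3% against 30.4%, acaa2-sg1 fish 4, with 44.0% against 30.8%, and acaa2-sg2 fish 3, with 39.8% against 33.3%. Each of these had a 12-bp or 21-bp deletion as its leading in-frame allele. So did tlr4ba-sg1 fish 4, acaa2-sg2 fish 4 and tlr4bb-sg2 fish 2, which were below the even share. A few alleles held most single-deletion reads of many samples, which makes a share either very small or large. More samples below than above the even share need therefore not mean uneven lengths, and no baseline for this count was computed. The same holds for means over the guides of a fish. The highest shares among the other 16 samples were 14.6% in tlr4ba-sg2 fish 1, 11.3% in tlr4ba-sg2 fish 2 and 10.8% in tlr4ba-sg1 fish 4. In terms of classified reads, tlr4bb-sg2 fish 1 had 42.9% observed, against 22.03% expected from its single-deletion reads, while acaa2-sg1 fish 2 had 0.022%, against 25.3% expected.

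Averaged over the guides of each fish, the in-frame share of single-deletion reads was 33.6%, 0.014%, 20.1% and 21.99% in acaa2 fish 1 to 4, and 36.9%, 5.63%, 0.035% and 2.72% in tlr4 fish 1 to 4. Guides counted equally in these means. Those of tlr4 fish 3 and 4 drew on first and second guides, those of tlr4 fish 1 and 2 on second guides only. In tlr4 fish 3 and 4, tlr4bb-sg1 entered as 0% of 89 and 80 single-deletion reads. In acaa2 fish 1, 66.5% at acaa2-sg2 was averaged with 0.781% of 128 reads at acaa2-sg1. The averaged share lay below the even share in 6 of 8 fish, and above it in acaa2 fish 1 by 1.59 points and in tlr4 fish 1 by 6.49 points. The mean was 15.1% ± 15.1 observed, against 31.3% ± 0.801 expected (SD, n = 8 fish), a difference of -16.2 points (exact two-sided sign-flip permutation test, p = 0.031, Benjamini-Hochberg 0.188 over 12 tests). The mean share of distinct alleles was 14.5% ± 9.41 observed, against 31.3% ± 0.801 expected (SD, n = 8 fish), a difference of -16.8 points and lower in 7 of 8 fish (exact sign-flip permutation p = 0.016, Benjamini-Hochberg 0.188). Neither held after adjustment. The fish of a knockout share guide sites, so neither test speaks of deletion lengths beyond these sites. The read difference also lost the unadjusted threshold without any 1 of acaa2 fish 2, 3 and 4 or tlr4 fish 2, 3 and 4 (exact sign-flip permutation p = 0.0625 each).

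The even spread counts 1-bp deletions, which made up 114 of the 312 single-deletion alleles and 48.9% of their reads. With 1-bp deletions left out and the even share taken over lengths from 2 bp, the differences were -10.1 points for reads (exact sign-flip permutation p = 0.109) and -6.64 points for distinct alleles (exact sign-flip permutation p = 0.180), and neither passed the threshold of 0.05. Among single deletions of 2 bp or more, 64 of 198 alleles (32.3%) had a length divisible by 3, 44 (22.2%) a remainder of 1 and 90 (45.5%) a remainder of 2. Among those of 4 bp or more the 3 classes held 34.4%, 34.4% and 31.2% of 128 alleles, nearly equal. Among those of 10 bp or more the in-frame class was the most numerous, with 36 of 72 alleles, against 17 and 19, and 26 of these 36 were the 12-bp deletions. Its reads there, 382098, were close in number to the 372816 reads of remainder 2, and both far exceeded the 45069 of remainder 1.

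In-frame deletions started at positions -24 to 6 and ended at positions -19 to 47. Of the 64, 27 spanned position 0, 28 lay to its left and 9 to its right. Of the 134 other single deletions of 2 bp or more, 35 spanned it, 77 lay to its left and 22 to its right. Spanning alleles were thus 42.2% of the members and 26.1% of the others. The members had a median length of 12 bp and these others of 5 bp, and a longer deletion covers more positions, so the share was not tested. Only 5 of the 64 members stayed more than 10 bp from position 0, against 29 of the 134 others.

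Placement is given by site as counts, which were not tested. At tlr4bb-sg2, 12 of 13 members spanned position 0 or started or ended beside it, and at acaa2-sg1 and acaa2-sg2 it was 9 of 16 each. At tlr4ba-sg2 it was 3 of 8, and at tlr4ba-sg1 it was 0 of 11. Among other single deletions, 1-bp ones included, it was 12 of 33 at tlr4bb-sg2, 24 of 61 at acaa2-sg1 and 11 of 51 at acaa2-sg2. For these others it was 12 of 44 at tlr4ba-sg2 and 2 of 37 at tlr4ba-sg1. By reads the samples were further apart, also within acaa2-sg2. Alleles that spanned or abutted position 0 held all 45101 in-frame reads of tlr4bb-sg2 fish 1, 45716 of 45731 in acaa2-sg1 fish 4 and 2555 of 2556 in acaa2-sg2 fish 1. They held 3.82% of those of tlr4ba-sg2 fish 1, 0.063% of those of acaa2-sg2 fish 3 and 0% of those of tlr4ba-sg1 fish 4. Of the reads of other single deletions in the same samples, such alleles held 99.9% in tlr4ba-sg2 fish 1, 0.315% in acaa2-sg2 fish 3 and 0.00096% in tlr4ba-sg1 fish 4. In tlr4ba-sg2 fish 1 the leading in-frame -4:3D ended at -2, and the leading other deletion, -2:2D, ended at -1 beside position 0. In the samples whose in-frame reads nearly all touched position 0, the share of other single-deletion reads that touched it was 22.7% for acaa2-sg1 fish 4, 94.95% for acaa2-sg2 fish 1 and 99.9% for tlr4bb-sg2 fish 1.

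Among the 12 members that reached 0.1% of classified reads, some edge positions recurred. Start -6 was shared by 4 alleles, namely -6:12D at both acaa2 guides and -6:6D at acaa2-sg1 and tlr4bb-sg2. Start -15 was shared by 3 alleles at 3 guides, and start -3 by -3:3D at tlr4ba-sg2 and tlr4bb-sg2. End -1, directly left of position 0, was shared by 4 alleles of 3 and 6 bp, and end 6 by 3 alleles, namely -6:12D at both acaa2 guides and -15:21D. The edges were compared by position only.

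The leading in-frame deletion was then set beside the most abundant other single deletion of the same sample. In acaa2-sg2 fish 3 the in-frame -15:12D, from -15 to -4, lay wholly inside -16:14D, from -16 to -3, which extends 1 base further on each side. Their reads stood at a ratio of 0.694, with 258187 for the 12-bp and 371945 for the 14-bp deletion. In acaa2-sg1 fish 4, -6:12D and -11:10D shared 5 bases and had a read ratio of 1.03. In acaa2-sg2 fish 1, -6:12D covered all 8 bases of -3:8D and had a ratio of 2.09, and in tlr4bb-sg2 fish 1, -15:21D covered both bases of 1:2D and had a ratio of 1.47. In tlr4ba-sg1 fish 4, -14:12D began at the same position as the leading 1-bp deletion -14:1D and had 0.132 times its reads. Whether -14:1D was present before editing was not tested. In tlr4ba-sg2 fish 1, -4:3D shared 1 base with -2:2D and had 0.186 times its reads. In the other 12 samples with a member, the leading in-frame allele had 0.165 times the reads of the leading other deletion or fewer.

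Most in-frame alleles were read in 1 fish only. Of the 64, 55 were in 1 fish, 9 in 2 fish and 0 in 3 or 4 fish. Among the 134 other single deletions of 2 bp or more, 99 were in 1 fish, 23 in 2, 7 in 3 and 5 in 4. The share in more than 1 fish was 14.1% of the members and 26.1% of these others. The members were longer, with a median of 12 bp against 5 bp, so this share was not tested. An allele of a single read cannot be in more than 1 fish, and 15 of the members and 41 of these others were such alleles. Those of tlr4ba-sg1 and tlr4bb-sg1 could be in 2 fish at most. Of the 26 deletions of 12 bp, 24 were in 1 fish, while 5 of the 20 deletions of 3 bp were in 2. In 3 of the shared cases the counts were very unequal, with 258187 and 8 reads for -15:12D at acaa2-sg2, 38034 and 4 for -15:21D and 6670 and 1 for -6:6D at tlr4bb-sg2. Whether the few reads in the second fish came from editing in that fish was not tested.

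Abundant in-frame deletions were accompanied by rare ones of the same length at other positions. In all 8 cases where a member had at least 1000 reads in a sample, there were 2 to 7 further alleles of that length whose reads it exceeded at least 10-fold, 35 in all. Together these held 0.108% to 4.03% of the reads of their length (median 0.492%). Beside -6:12D in acaa2-sg1 fish 4, for example, 7 other 12-bp deletions started between -10 and 4 and held 533 reads, and beside -15:21D in tlr4bb-sg2 fish 1, 5 other 21-bp deletions started between -18 and -10 and held 149. Other single deletions of 2 bp or more gave a like count, with such alleles in 18 of 19 cases and a median of 0.214% of reads. In every fish in which they were read, 37 of the 64 members stood beside an allele of the same length with at least 10 times their reads (57.8%), as did 61 of the 134 other single deletions of 2 bp or more (45.5%). This left 27 members that did not. Counted per sample, 21 of the rarer alleles, with 900 reads, were of 12 bp, 5 with 149 reads were of 21 bp, 11 with 192 reads were of 3 bp and 3 with 76 reads were of 6 bp. Whether the rarer alleles are separate edits or other readings of the abundant one was not tested.

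The guides of each gene were compared for their in-frame shares, with the sample as unit. At acaa2, in-frame deletions made up 4.71% ± 9.29 of classified reads at acaa2-sg1 and 9.09% ± 17.6 at acaa2-sg2 (SD, n = 4 each), differing by -4.39 points (p = 0.657, exact permutation test). As a share of indel reads they were 11.2% ± 21.6 at acaa2-sg1 and 26.5% ± 32.5 at acaa2-sg2, differing by -15.4 points (p = 0.714, exact permutation test). The sg1 value was higher in 2 fish and lower in 2 on both scales. Restricted to fish 1 and 2, sg1 minus sg2 was -0.442 points of classified and -32.9 points of indel reads, while restricted to fish 3 and 4 it was -8.33 and 2.16 points. Without acaa2-sg2 fish 3, the classified-read difference was 4.40 points. The indel-read difference was -26.2 points without acaa2-sg1 fish 4, -24.2 points without acaa2-sg2 fish 2 or fish 4, and -2.07 points without acaa2-sg2 fish 1.

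At tlr4ba, in-frame deletions made up 4.21% ± 5.95 of classified reads at tlr4ba-sg1 (SD, n = 2) and 1.78% ± 3.16 at tlr4ba-sg2 (SD, n = 4), differing by 2.43 points (p = 0.533, exact permutation test). Of indel reads they made up 5.40% ± 7.64 and 5.17% ± 6.0 in the same order, differing by 0.234 points (p = 0.933, exact permutation test). The smallest p this design allows is 0.133. Within fish 3 and 4, the pair read with both guides, the differences were 4.21 and 5.39 points. Without tlr4ba-sg1 fish 4 they were -1.78 and -5.17 points, and without tlr4ba-sg2 fish 3 or fish 4 the indel-read difference was -1.49 or -1.48 points. The indel-read difference was 21.5 points with -14:1D, an allele of both tlr4ba-sg1 fish, left out, an alternative chosen after its values were seen, and 45.1 points with only indels within 10 bp of position 0.

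At tlr4bb, the share was 0% in both tlr4bb-sg1 samples and averaged 10.7% ± 21.4 of classified reads and 14.8% ± 29.6 of indel reads at tlr4bb-sg2 (SD, n = 4). The differences were -10.7 and -14.8 points (p = 0.133 for each in an exact permutation test, which cannot go lower with these samples). Within fish 3 and 4 they were -0.0047 and -0.065 points, so the pooled values rest on tlr4bb-sg2 fish 1. Without that sample they were -0.0048 and -0.046 points.

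Between the second guides of the paralogs, tlr4ba-sg2 minus tlr4bb-sg2 was -8.95 points of classified reads (p = 0.771, exact permutation test) and -9.66 points of indel reads (p = 0.886, exact permutation test). Without tlr4bb-sg2 fish 1 the differences were 1.77 and 5.12 points. Restricted to fish 1 and 2 they were -17.9 and -19.3 points, against -0.0042 and -0.049 points in fish 3 and 4. Fish 1 and 2 of the tlr4 knockouts were also the shallower samples, with 28353 to 105536 reads per sample, against 205987 to 612348 in fish 3 and 4. The part of depth in this was not tested.

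Averaged over guides, acaa2 fish had in-frame deletions in 6.90% ± 8.44 of classified reads and tlr4 fish in 6.78% ± 11.98 (SD, n = 4 each), differing by 0.120 points (p = 0.886, exact permutation test). The acaa2 fish had 0.453%, 0.011%, 17.8% and 9.32% in fish 1 to 4, and the tlr4 fish had 24.7%, 0.305%, 0.0026% and 2.10%. Of the tlr4 fish, 1 and 2 were averaged over second guides only, and 3 and 4 over first and second guides. The groups overlapped throughout, and with 1 fish left out at a time the difference ran from -3.52 to 6.09 points. Of indel reads, the in-frame share was 18.9% ± 13.9 in acaa2 fish and 10.7% ± 15.9 in tlr4 fish, differing by 8.19 points (p = 0.514, exact permutation test). With 1 fish left out at a time it ran from 3.30 to 16.1 points, the lowest without acaa2 fish 1 and the highest without tlr4 fish 1. It was also 16.2 points with samples under 1000 indel reads left out and 2.67 points with only indels within 10 bp of position 0. Of the 10 comparisons between guides or knockouts, 0 gave a p under 0.05 in the exact permutation test, and no Benjamini-Hochberg value was below 0.400. The comparisons of the 2 guides within tlr4ba and within tlr4bb could not pass 0.05, since the smallest p they allow is 0.133 (exact permutation test). The acaa2 guides were read in the same 4 fish, as were the second guides of the paralogs, but samples were regrouped across fish. An exact permutation test that kept the samples of each fish together could not reach 0.05 for these pairs either. No comparison between guides could thus have passed 0.05 with the fish kept as pairs. At tlr4bb, both sg1 samples lay at 0% and all 4 sg2 samples above it, but sg2 fish 4 by 1 read only. Fish 2, 3 and 4 of sg2 had 0.0063%, 0.129% and 0.0018% of indel reads. These lay below the 2.94% and 3.30% that the sg1 counts of 0 allow. With alleles of 1 read left out, p was 0.400 on both scales (exact permutation test).

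Alleles of several events can also lose a net number of bases divisible by 3. They were not members, and they added little: their share of classified reads was highest in acaa2-sg1 fish 4, at 0.103% (253 reads in 37 alleles), and second highest in tlr4bb-sg2 fish 1, at 0.028% (29 reads in 11 alleles). In each of the other 18 samples it was 0.0086% or less.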

How the data were processed

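The authors deposited raw read counts for each allele, in tables that hold 1 guide each and a column for every fish, per the file headers. Products of 200 to 280 bp had been amplified from 50 to 100 ng of DNA, per the labels' protocols. Per the submitters' processing notes, the genome build was GRCz10 and R 4.0.5 was used, while the aligner, allele caller and filters are not given in the sources used here. Columns were tied to samples by guide and fish number, and 0 columns were left over.

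Shares, 95% Wilson intervals, exact permutation tests of differences of means and exact sign-flip tests over fish were computed with Python 3.11.15, NumPy 2.4.6, pandas 2.3.3 and SciPy 1.17.1, and the scripts were tested on simulated data. No count model was used, since alleles of different sites cannot be matched. Sign-flip tests assume differences symmetric about 0, which read shares led by a few alleles need not meet. P-values compare the difference seen with those from regrouping these samples or flipping the signs of these fish. Equal fish numbers within a knockout were taken to mean 1 animal, an assumption that no label spells out.

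Alleles named reached 0.1% of classified reads in at least 1 fish, or led their sample with more than 1 read. Members, lists and tests were chosen with earlier results of these data known.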

Additional observations from a re-analysis of the deposited data

Results flagged for a closer look

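Among the 12 sets of 4 values examined (each 4-fish guide and each knockout, on both scales), 8 held a value set apart from the other 3 by a gap that Dixon's test passes at 95%. Chance flags about 1 in 20 groups of independent, normally distributed values, a rate that need not hold for these skewed shares, which reuse the same samples on both scales and as means of fish. All 8 were the highest of their set. Of classified reads these were 18.6% for fish 4 at acaa2-sg1, 35.5% for fish 3 at acaa2-sg2, 6.50% in tlr4ba-sg2 fish 1, 42.9% in tlr4bb-sg2 fish 1 and 24.7% in tlr4 fish 1 averaged over its guides. Of indel reads they were 43.6% in acaa2-sg1 fish 4, 59.2% in tlr4bb-sg2 fish 1 and 34.3% in tlr4 fish 1 averaged over its guides. In alleles of several events, which are not members and enter only an alternative, net in-frame losses held 0.103% of classified reads in acaa2-sg1 fish 4.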

How the results depend on the processing

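Among the recomputed differences, 159 kept their direction and, where a test was run, their side of the threshold of 0.05. A further 17 reversed and 8 lost the threshold. The causes were not tested, beyond the fewer samples of a left-out fish. The comparisons between guides or knockouts began at p = 0.133 or more (exact permutation test), so a kept side says little about their stability. Sizes could also change within this count: the tlr4ba indel-read difference went from 0.234 to 45.1 points with only indels within 10 bp of position 0. With alleles under 1% left out, the guides of acaa2 differed by 2.05 points of indel reads. As log2 odds, with 0.5 reads added to each count, the indel-read differences were 0.76 for acaa2, -1.66 for tlr4ba, 1.90 for tlr4bb and 1.75 between the second guides. The tlr4bb value rests on the added reads, since tlr4bb-sg1 had 0 in-frame reads, and does not mean a higher share there. Without 1-bp deletions the differences from the even share were -10.1 points (reads) and -6.64 points (distinct alleles). With each sample left out in turn, classified-read differences ran from -9.03 to 4.40 (acaa2), -1.78 to 6.64 (tlr4ba), -12.5 to 1.77 (second guides) and -3.52 to 6.09 points (knockouts). Indel-read differences ran from -26.2 to -2.07 (acaa2), -5.17 to 5.64 (tlr4ba), -14.6 to 5.12 (second guides) and 3.30 to 16.1 points (knockouts). The read difference from the even share ran from -19.4 to -13.9 points with each fish left out, and lost the threshold without acaa2 fish 2, 3 or 4 or tlr4 fish 2, 3 or 4 (exact p = 0.0625 each). With an expected share of 1 in 3 the differences from it were -18.2 and -18.9 points. With the fish number as a replicate block, the tlr4ba differences were 4.21 and 5.39 points and the tlr4bb differences -0.0047 and -0.065 points. With so few fish the blocked exact test could not reach 0.05, so no comparison could change its side of the threshold. Leaving out alleles of 1 read left 5 members at tlr4ba-sg2, and requiring 0.1% of reads left 3 each at acaa2-sg1 and tlr4bb-sg2 and 2 each at acaa2-sg2, tlr4ba-sg1 and tlr4ba-sg2. With samples under 1000 indel reads left out, tlr4bb-sg1 had no sample to compare. Depth limits the indel-read shares of acaa2-sg1 fish 1 and of tlr4bb-sg1, which rest on 161, 102 and 91 reads.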
